A study of Mus musculus with 8 samples.

Results

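The 10 genes described here mark lipid-associated macrophages, and they were read by symbol from a count table of 31053 genes from visceral white adipose tissue (vWAT) of mice. They are *Trem2*, *Tyrobp*, *Itgax*, *Cd9*, *Cd63*, *Gpnmb*, *Lgals3*, *Spp1*, *Ctsk* and *Lipa*, and the rule selects them by name, not by a measured value. The samples were 4 KIKO and 4 WT male mice aged 8 months, with 1 library of vWAT per mouse. KIKO mice carry 1 knock-in and 1 knock-out allele of the same gene. WT mice were littermates with both alleles intact, and all mice were C57BL/6 males on a normal diet with no treatment. The labels call the same depot epididymal, and the tissue was sequenced whole, without sorting of macrophages.

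Lipid-associated macrophages are macrophages of fat depots that gather around dying or overloaded adipocytes and take up their lipid. They are recognised by the receptor Trem2, which binds lipids and lipoproteins and signals through the adaptor Tyrobp, also called DAP12. With it they express a program of surface proteins, secreted proteins and lysosomal enzymes that handle the engulfed lipid. Few of the genes belong to these cells only. In adipose tissue *Cd63*, *Cd9*, *Lgals3*, *Lipa* and *Ctsk* are also made by other cells.

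Promoter windows from RefSeq (GRCm38.p6, 250 bases before to 50 after a start site) were matched to 9 of the 10 genes, all but *Tyrobp*, with 2 windows for *Spp1*. They were searched on both strands for 3 motifs, whose matches did not overlap. The E-box CACGTG is bound by the MiT/TFE factors that drive lysosomal genes, GAGGAA is the core bound by the macrophage factor PU.1, and TGANTCA is the AP-1 motif. CACGTG was in 0 of the 10 windows, against 7.2% of all 32851 windows. GAGGAA was in 5 of them (*Trem2*, *Cd63*, *Spp1*, *Ctsk* and *Lipa*), against 28.3% of all windows. TGANTCA was in 3 (*Trem2*, *Itgax* and *Gpnmb*), against 7.8% of all windows. These are matches of letters and not measured binding sites. The bases before the start site are shown for the receptor that names the cells and for the members whose levels did not overlap between genotypes, a choice made after their values were seen. Capitals mark GAGGAA or its reverse complement and TGANTCA, 5′ to 3′ on the plus strand.
Trem2, chr17:48346301-48346400: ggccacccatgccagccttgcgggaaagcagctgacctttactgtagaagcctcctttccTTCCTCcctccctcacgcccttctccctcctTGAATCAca
Cd63, chr10:128909095-128909344: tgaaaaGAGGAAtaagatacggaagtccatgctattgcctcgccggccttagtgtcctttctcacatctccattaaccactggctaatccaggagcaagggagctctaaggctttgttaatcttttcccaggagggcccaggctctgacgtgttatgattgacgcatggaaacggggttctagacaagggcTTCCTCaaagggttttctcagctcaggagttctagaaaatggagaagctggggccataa
Lgals3, chr14:47373610-47373859: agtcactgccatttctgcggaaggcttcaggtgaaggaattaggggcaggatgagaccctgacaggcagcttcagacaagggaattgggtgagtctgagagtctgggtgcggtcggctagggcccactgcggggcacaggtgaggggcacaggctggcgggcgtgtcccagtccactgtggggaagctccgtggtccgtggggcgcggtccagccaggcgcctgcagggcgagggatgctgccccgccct
In the *Trem2* window the PU.1 core starts 40 bases before the start site. The TGANTCA match, which reads TGAATCA, starts 9 bases before the start site. In the *Cd63* window the PU.1 core occurs 244 and 59 bases before the start site. None of the 3 motifs occurred in the *Lgals3* window.

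The libraries held 2602189 to 3478539 counts in KIKO and 2936515 to 3119146 counts in WT mice. Levels are given as CPM, a gene's counts per 1000000 counts of its library, scaled by TMM, a factor that makes libraries of different composition comparable. The effect of genotype was tested in the 11080 genes with enough counts, by the quasi-likelihood test of edgeR. A gene passed at a Benjamini-Hochberg adjusted p under 0.05 over all of them, which was met by 0.677% of genes in either direction and by 0.280% as higher in KIKO. WT mouse 3 stood apart from the other WT mice. Across 11075 genes, levels in it fell with transcript length (Spearman's rho -0.109), as in KIKO mice (-0.213 to -0.0838), whereas rho was 0.108 to 0.26 in the other WT mice. The log2 fold change between genotypes also fell with transcript length (rho -0.282), and genes are not independent replicates in these correlations. Results are also given without this mouse. Without it rho is negative in all KIKO mice and positive in all WT mice left. Genotype and this trend therefore cannot be told apart in those results. EdgeR then called 654 of 11261 tested genes, 285 of them higher.

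Of the 10 genes, 9 had enough counts to be tested, and 1 of the 9 passed. *Lgals3* was higher in KIKO mice, and no member was lower. Log2 fold changes were above 0 in 7 of the 9, where 49.0% of all tested genes were above 0. Their median was 0.34, beside -0.00711 for all tested genes. At an unadjusted p under 0.05, *Lgals3*, *Cd63* and *Tyrobp* were higher and none was lower, against 7.13% of all tested genes higher and 9.06% lower. In *Lgals3* and *Cd63* every KIKO mouse lay above every WT mouse. This held for 3.94% of all tested genes, and the opposite order held for 4.51% of them and for 0 members. Without WT mouse 3, 2 members passed, *Lgals3* and *Tyrobp*, both higher, beside 654 of all 11261 tested genes (285 higher). In whole tissue, a change in the number of cells of a type and a change in RNA per cell cannot be told apart.

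*Lgals3* encodes galectin-3, a lectin that binds beta-galactosides, is secreted by activated macrophages and gathers on damaged lysosomes. The gene (ENSMUSG00000050335) lies on chromosome 14 of GRCm38 from 47367751 to 47386160. It had 271, 266, 215 and 248.6 CPM in KIKO mice 1 to 4, against 120, 147, 196 and 150 CPM in WT mice 1 to 4. The lowest KIKO mouse, mouse 3, was above the highest WT mouse, which was WT mouse 3. The means were 250 ± 25.4 CPM in KIKO and 153 ± 31.5 CPM in WT mice (SD, n = 4 each), a 1.63-fold difference. The log2 fold change was 0.71 (SE 0.15, 95% interval 0.40 to 1.02) with an edgeR adjusted p of 0.0442. Over all 70 ways to assign the mice, an exact 2-sided permutation test gave p = 0.0286, the smallest it can give. The call rested on a narrow margin. Adjusted p was 0.0559 to 0.169 with any other 1 mouse left out than WT mouse 3, and 0.00706 without WT mouse 3. With offsets that correct each library for length and GC, the log2 fold change was 0.61 and the edgeR adjusted p 0.0598. *Lgals3* also did not pass in a model with the replicate number of the mice as a block.

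**Figure D1:**
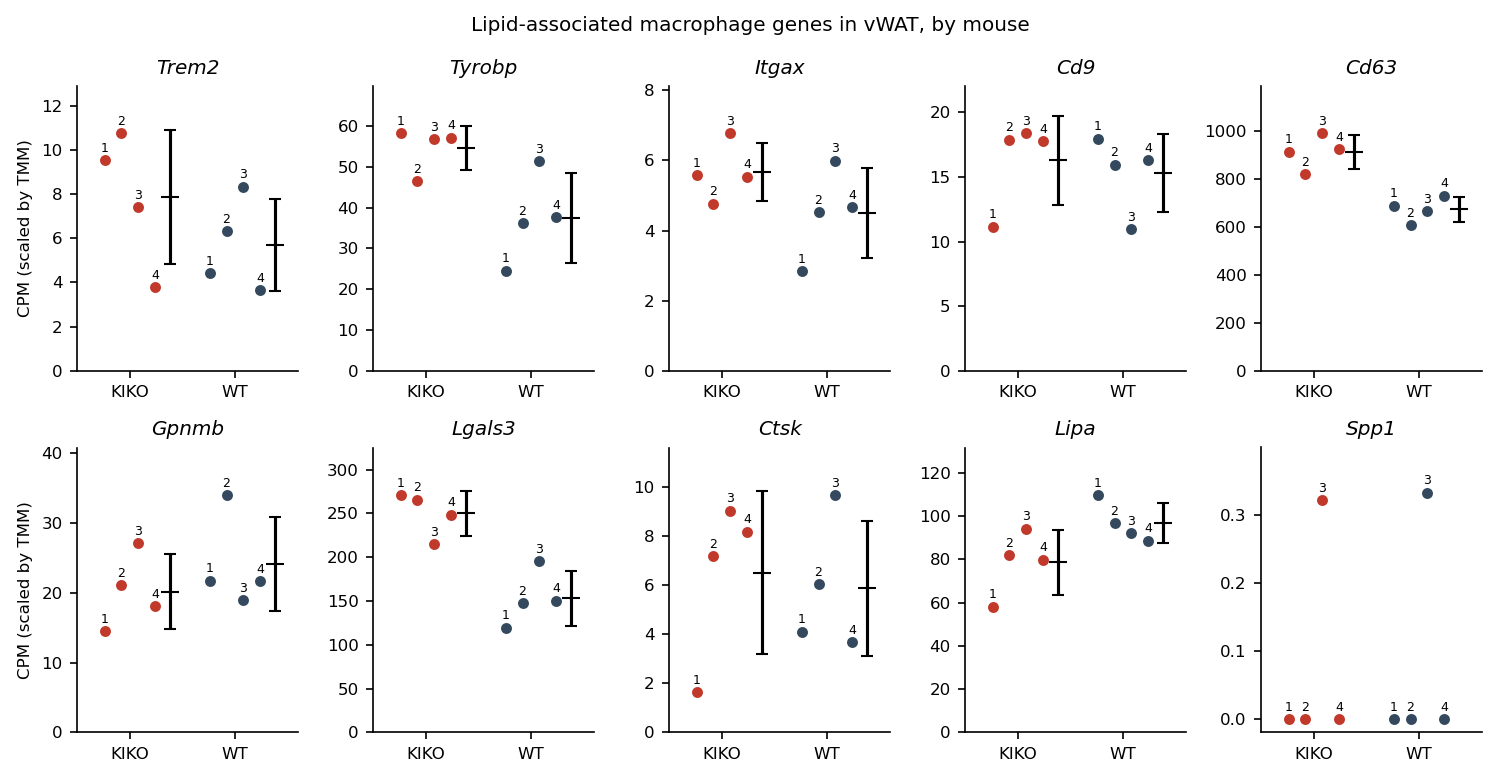
CPM scaled by TMM of each member in each mouse, with KIKO left of WT. Points are mice with their numbers, and bars are the mean and SD of 4 mice, left out for *Spp1*, which had 1 count in 1 mouse of each genotype. All *Lgals3* and *Cd63* points of KIKO mice lie above those of WT mice, and the groups overlap in the other tested genes.

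The receptor pair did not pass. *Tyrobp* (ENSMUSG00000030579, chromosome 7 from 30413760 to 30417585) carries the activating signal of Trem2 and of several other myeloid receptors. It had 58.2, 46.5, 56.7 and 57.1 CPM in KIKO mice, against 24.6, 36.1, 51.3 and 37.6 CPM in WT mice. WT mouse 3 alone overlapped with the KIKO mice, above KIKO mouse 2. The means were 54.6 ± 5.44 CPM in KIKO and 37.4 ± 10.9 CPM in WT mice (SD, n = 4 each). This gave a log2 fold change of 0.55 (SE 0.18, 95% interval 0.16 to 0.94, edgeR adjusted p = 0.157; exact permutation p = 0.0571). Without WT mouse 3 it was 0.74 with an edgeR adjusted p of 0.0200. In that setting 654 of 11261 tested genes passed, and genotype and the trend with transcript length cannot be told apart. The longest transcript of *Tyrobp* has 597 bases.

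*Trem2* (ENSMUSG00000023992, chromosome 17 from 48346401 to 48354147) was close to the lower limit of these libraries, with 11 to 29 counts in each. It had 9.53, 10.7, 7.41 and 3.79 CPM in KIKO mice, against 4.41, 6.32, 8.33 and 3.66 CPM in WT mice. KIKO mouse 4 had nearly the lowest and WT mouse 3 the third highest level, so the groups overlapped. The means were 7.87 ± 3.05 CPM in KIKO and 5.68 ± 2.09 CPM in WT mice (SD, n = 4 each). The log2 fold change of 0.44 had an interval of -0.29 to 1.17, and no difference was detectable with these counts and this spread between mice (SE 0.34, edgeR adjusted p = 0.562).

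Of the other surface proteins, *Cd63* came nearest to the threshold. It encodes a tetraspanin of late endosomes, lysosomes and exosomes and lies on chromosome 10 from 128900989 to 128912822 (ENSMUSG00000025351). It had 916, 822, 991 and 927 CPM in KIKO mice, against 690, 609, 667 and 732 CPM in WT mice, and the groups did not overlap. With 2001 to 3180 counts per library it was the member measured most precisely. The means were 914 ± 69.97 CPM in KIKO and 674 ± 51.6 CPM in WT mice (SD, n = 4 each), a ratio of 1.36 in the fit. The log2 fold change was 0.44 (SE 0.12, 95% interval 0.18 to 0.69, edgeR adjusted p = 0.100; exact permutation p = 0.0286). DESeq2, which gave adjusted p values for 5 of the 10 members, called *Cd63* (adjusted p = 0.00254) beside *Lgals3* (adjusted p = 0.00127). Over all genes DESeq2 called 284 of the 5941 to which it gave an adjusted p.

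*Cd9* (ENSMUSG00000030342, chromosome 6 from 125460266 to 125494791, minus strand) encodes another tetraspanin, found on lipid-associated macrophages and on many other cells. It had 11.2, 17.9, 18.4 and 17.8 CPM in KIKO mice, against 17.97, 15.96, 11.0 and 16.3 CPM in WT mice. KIKO mouse 1 and WT mouse 3 were low and the other 6 mice lay close together. Its log2 fold change was 0.09 (SE 0.21, 95% interval -0.36 to 0.54, edgeR adjusted p = 0.872), and it was -0.04 without WT mouse 3. An antisense gene, *Gm26728*, overlaps its exons and was not analysed here, and the use of strand in counting is not given in the sources used here.

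*Itgax* (ENSMUSG00000030789, chromosome 7 from 128129547 to 128150657) encodes CD11c, the integrin alpha chain used to mark inflammatory adipose macrophages and dendritic cells. It had 5.59, 4.77, 6.77 and 5.54 CPM in KIKO mice, against 2.84, 4.52, 6.00 and 4.66 CPM in WT mice. WT mouse 1 was lowest and the other 7 mice lay between 4.52 and 6.77 CPM. With 9 to 21 counts per library the log2 fold change was 0.34 (SE 0.29, 95% interval -0.29 to 0.96, edgeR adjusted p = 0.612).

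*Gpnmb* (ENSMUSG00000029816, chromosome 6 from 49036546 to 49070929) encodes a membrane glycoprotein of lysosomes and melanosomes that is made by lipid-loaded macrophages. It had 14.5, 21.1, 27.1 and 18.1 CPM in KIKO mice, against 21.8, 34.0, 19.0 and 21.7 CPM in WT mice. WT mouse 2 was highest and the groups overlapped. Its log2 fold change was -0.26 (SE 0.22, 95% interval -0.73 to 0.21, edgeR adjusted p = 0.595).

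The lysosomal enzymes did not pass either. *Lipa* encodes lysosomal acid lipase, which splits cholesteryl esters and triglycerides of engulfed lipid, and lies on chromosome 19 from 34492318 to 34527474 (ENSMUSG00000024781, minus strand). It had 58.2, 81.9, 94.1 and 79.9 CPM in KIKO mice, against 110, 96.7, 91.9 and 88.6 CPM in WT mice. Of the KIKO mice, only mouse 3 reached the WT range. The means were 78.5 ± 15.0 CPM in KIKO and 96.7 ± 9.26 CPM in WT mice (SD, n = 4 each). The log2 fold change was -0.30 (SE 0.15, 95% interval -0.61 to 0.01, edgeR adjusted p = 0.324; exact permutation p = 0.0857).

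*Ctsk* (ENSMUSG00000028111, chromosome 3 from 95499256 to 95509362) encodes cathepsin K, a cysteine protease that degrades collagen and is best known from osteoclasts. It had 1.64, 7.16, 9.02 and 8.16 CPM in KIKO mice, against 4.10, 6.02, 9.66 and 3.66 CPM in WT mice. KIKO mouse 1, with 5 counts, was lowest and WT mouse 3, with 29 counts, highest. The fitted log2 fold change was 0.15 with an interval of -0.73 to 1.04 (SE 0.42, edgeR adjusted p = 0.889).

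*Spp1* (ENSMUSG00000029304, chromosome 5 from 104435118 to 104441050) encodes osteopontin, a secreted phosphoprotein that draws macrophages into adipose tissue. It had 1 count in KIKO mouse 3 (0.322 CPM), 1 count in WT mouse 3 (0.333 CPM) and 0 in the other 6 mice. A count of 0 allows up to 3 counts, which is 0.874 to 1.19 CPM in these libraries, so no fold change is given. The limit covers counting error only. *Gm42793*, not analysed here, overlaps its exons on the same strand.

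**Figure D2:**
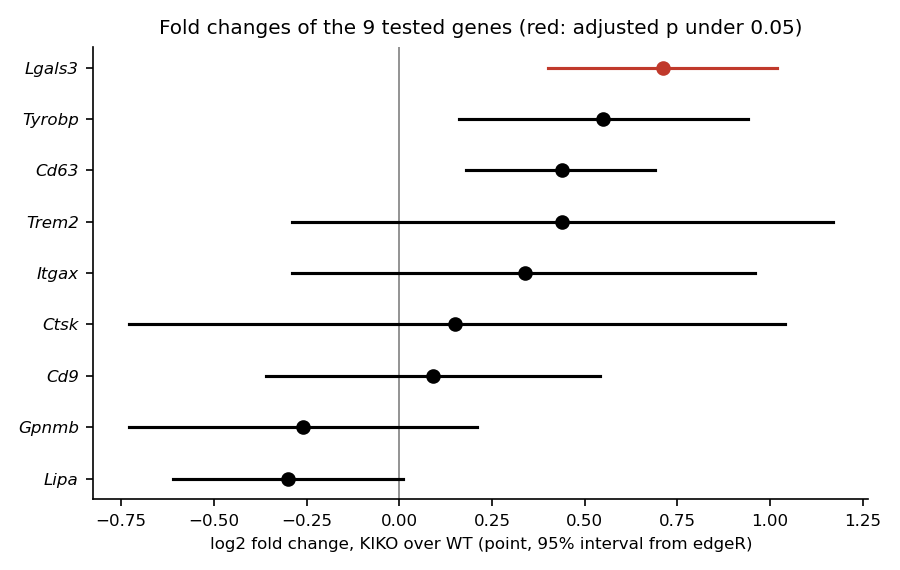
Log2 fold change (KIKO over WT) of the 9 tested members, with points as edgeR estimates and lines as 95% intervals, sorted by size. The intervals of *Lgals3*, *Tyrobp* and *Cd63* lie above 0, and those of the other 6 genes include it; only *Lgals3*, in red, has an adjusted p under 0.05.

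The members did not move as a block from mouse to mouse. KIKO mouse 3 was above the gene's mean over the 8 mice in 9 of 9 tested members, KIKO mice 2 and 4 in 6 each and KIKO mouse 1 in 5. Of the WT mice, mouse 3 was above it in 6, mouse 2 in 5, and mice 1 and 4 in 3 each. KIKO mouse 1 was the highest of all mice in 2 members and the lowest in 3. The mean log2 deviation from the genes' means was -0.15, 0.20, 0.32 and 0.09 in KIKO mice 1 to 4, against -0.31, -0.02, 0.10 and -0.22 in WT mice 1 to 4.

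The summed level of the 10 genes was 1345, 1277, 1426 and 1366 CPM in KIKO mice, against 995, 955, 1060 and 1059 CPM in WT mice, a ratio of means of 1.33. The sum weights each gene by its counts, most of which were from *Cd63*. Without *Cd63* and *Lgals3*, the sum of the other 8 genes was 190 ± 24.96 CPM in KIKO and 190 ± 11.0 CPM in WT mice (SD, n = 4 each). The higher sum in KIKO mice thus rested on these 2 genes, which have the most counts and whose genotypes did not overlap. The equal sums do not mean that each of the others was equal. On average *Tyrobp* was higher in KIKO mice (54.6 against 37.4 CPM), as were *Trem2*, *Cd9*, *Itgax* and *Ctsk* by less. *Lipa* (78.5 against 96.7 CPM) and *Gpnmb* (20.2 against 24.1 CPM) were lower. The other genes summed to 159, 190, 220 and 190 CPM in KIKO mice, against 185, 200, 198 and 176 CPM in WT mice.

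Macrophage markers were measured beside the members. All 16 general macrophage markers were tested, none was at 0 in any library, and their summed level was 2302 to 2686 CPM in KIKO and 1912 to 2095 CPM in WT mice, without overlap. Of these 16, 1 rose, *Lyz2*, which encodes lysozyme, at 657 ± 56.3 CPM in KIKO and 340 ± 100 CPM in WT mice (SD, n = 4 each; log2 fold change 0.95, SE 0.18, edgeR adjusted p = 0.0326). Their median log2 fold change was 0.32, close to the members' 0.34. Of 11 markers of resident macrophages 2 rose, the folate receptor gene *Folr2* (log2 fold change 0.91, SE 0.16, edgeR adjusted p = 0.0326) and the chemokine gene *Pf4* (0.63, SE 0.12, edgeR adjusted p = 0.0339). Their summed level was 1399 to 1852 CPM in KIKO and 1088 to 1248 CPM in WT mice, and 1 gene, *Mrc1*, is in both lists. These calls moved with the mice used. Without WT mouse 3, 3 general markers (*Lyz2*, *Cd68* and *Csf1r*) and 4 resident markers (*Folr2*, *Gas6*, *Pf4* and *Cbr2*) passed, and DESeq2 called 2 and 5. Over all genes these settings called 654 of 11261 and 284 of 5941. *Lyz2*, *Folr2* and *Pf4* did not pass when mouse 2 or 4 of the WT group, or mouse 2, 3 or 4 of the KIKO group, was left out, and without KIKO mouse 1 only *Folr2* of the 3 passed. Without WT mouse 1 *Pf4* did not pass, nor did it with the length and GC correction. Of 9 inflammatory macrophage markers only *Cd86* had enough counts to be tested (log2 fold change 0.40, SE 0.40, edgeR adjusted p = 0.670), and *Il1b*, *Tnf*, *Il6* and *Nos2* were at 0 in at least 1 library each. Their summed level was 5.26 to 16.1 CPM in KIKO and 4.66 to 8.20 CPM in WT mice. The part of macrophage content in the members' levels was not tested.

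Each member was also set against these macrophages, as its log2 CPM minus the mean log2 CPM of the 16 general markers, a measure chosen after the data were seen and given without a test. The marker mean was 5.98, 6.01, 6.07 and 6.00 in KIKO mice, against 5.64, 5.73, 5.67 and 5.73 in WT mice, a difference of 0.32 that this measure takes from every gene alike. On this scale all KIKO mice were lower than all WT mice in 26.0% of all tested genes, and higher in 0.298%. *Lipa* was the 1 member of 9 that lay below in this way, at -0.12, 0.35, 0.49 and 0.32 in KIKO mice, against 1.13, 0.87, 0.85 and 0.74 in WT mice, and 0 members lay above. *Lgals3* had a difference of 0.40 (1.94 ± 0.19 in KIKO and 1.54 ± 0.29 in WT mice, SD, n = 4 each), with overlap.

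Markers of other cell types were summed in the same way. Summed adipocyte markers had 36610 to 58090 CPM in KIKO and 28630 to 34120 CPM in WT mice, and summed fibroblast and progenitor markers 3327 to 3935 CPM in KIKO and 2773 to 3041 CPM in WT mice, both without overlap. The adipocyte sum was mostly counts of *Cfd*, whose genotypes overlapped. The fibroblast and progenitor sum was mostly counts of *Dcn*, at 2762 CPM in KIKO and 2079 CPM in WT mice on average. Log2 fold changes were above 0 in 5 of the 8 genes of that list. *Col1a1* was at -0.02, *Col3a1* at -0.04 and *Pi16* at -0.36. Summed dendritic cell markers had 954 to 1168 CPM in KIKO and 823 to 950 CPM in WT mice, of which *Flt3*, *Clec9a*, *Xcr1*, *Cd209a* and *Ccr7* were at 0 in at least 1 library. The dendritic sum was mostly counts of *H2-Ab1* (479 against 380 CPM on average, KIKO against WT) and *Cd74* (512 against 447 CPM). *Zbtb46*, the third tested gene of this list, had a log2 fold change of -0.26 (SE 0.16, edgeR adjusted p = 0.470). Mesothelial markers overlapped, at 246 to 490 CPM in KIKO and 236 to 346 CPM in WT mice, and 1 of 6 tested rose, the keratin gene *Krt19* (log2 fold change 1.15, SE 0.21, edgeR adjusted p = 0.0326). That call was lost when KIKO mouse 1, 2 or 4, or mouse 2 or 4 of the WT group, was left out. Of 5 tested mast cell markers the protease genes *Cpa3* (1.58, SE 0.23) and *Cma1* (1.22, SE 0.19) rose (edgeR adjusted p = 0.0255 each). The other 3 had log2 fold changes below 0 and did not pass, *Kit* (-1.24, SE 0.33, edgeR adjusted p = 0.0942), *Mcpt4* (-0.39) and *Tpsb2* (-0.34), so the median was -0.34. Neither protease gene passed when KIKO mouse 4, or mouse 2 or 4 of the WT group, was left out, nor did *Cma1* without KIKO mouse 1. Summed endothelial markers had 396 to 678 CPM in KIKO and 616 to 812 CPM in WT mice, and summed mural cell markers 402 to 551 CPM in KIKO and 538 to 592 CPM in WT mice. All 8 endothelial markers (median -0.34) and all 7 mural markers (median -0.53) had log2 fold changes below 0. *Myh11*, a smooth muscle myosin gene, was lower in every KIKO mouse (-0.58, SE 0.16, edgeR adjusted p = 0.0955), an order that held for 4.51% of all tested genes. EdgeR, limma-voom and limma-trend called 0 adipocyte, fibroblast, dendritic, endothelial and mural markers. At an unadjusted p under 0.05 there were 2 higher adipocyte, 2 higher and 1 lower fibroblast, 1 higher dendritic, 2 lower endothelial and 3 lower mural markers. Over all tested genes the shares were 7.13% higher and 9.06% lower. DESeq2 called 2 adipocyte and 1 fibroblast marker as higher and *Myh11* as lower. The part of these cells in the members' levels was not tested, and *Lgals3*, *Cd63* and *Lipa* are expressed in several of them.

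Other genes of the lipid-associated macrophage program did not pass. Of 18 tested, 0 were called by edgeR, and at an unadjusted p under 0.05 there were 4 higher and 1 lower, with a median log2 fold change of 0.17. Among all tested genes 7.13% were higher and 9.06% lower at that p. Limma-voom and limma-trend called 0 as well, and DESeq2 called *Cd68*. Without WT mouse 3 edgeR called 2 as higher, *Cd68* and the phosphatase gene *Acp5*. *Cd68*, a glycoprotein of macrophage lysosomes that is also among the general markers, had 51.3 ± 3.62 CPM in KIKO and 34.6 ± 5.83 CPM in WT mice (SD, n = 4 each; log2 fold change 0.57, SE 0.15, edgeR adjusted p = 0.0836). *Capg*, which caps actin filaments, followed (0.55, SE 0.17, edgeR adjusted p = 0.128). *Cd36*, the fatty acid and lipoprotein scavenger receptor, was at 1331 ± 54.7 CPM in KIKO and 1610 ± 139 CPM in WT mice (SD, n = 4 each), lower in every KIKO mouse but not past the threshold (-0.27, SE 0.12, edgeR adjusted p = 0.279). That order held for 4.51% of all tested genes. *Cd36* and several others of the list, such as *Fabp4*, *Lpl* and *Plin2*, are abundant in adipocytes.

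**Figure D3:**
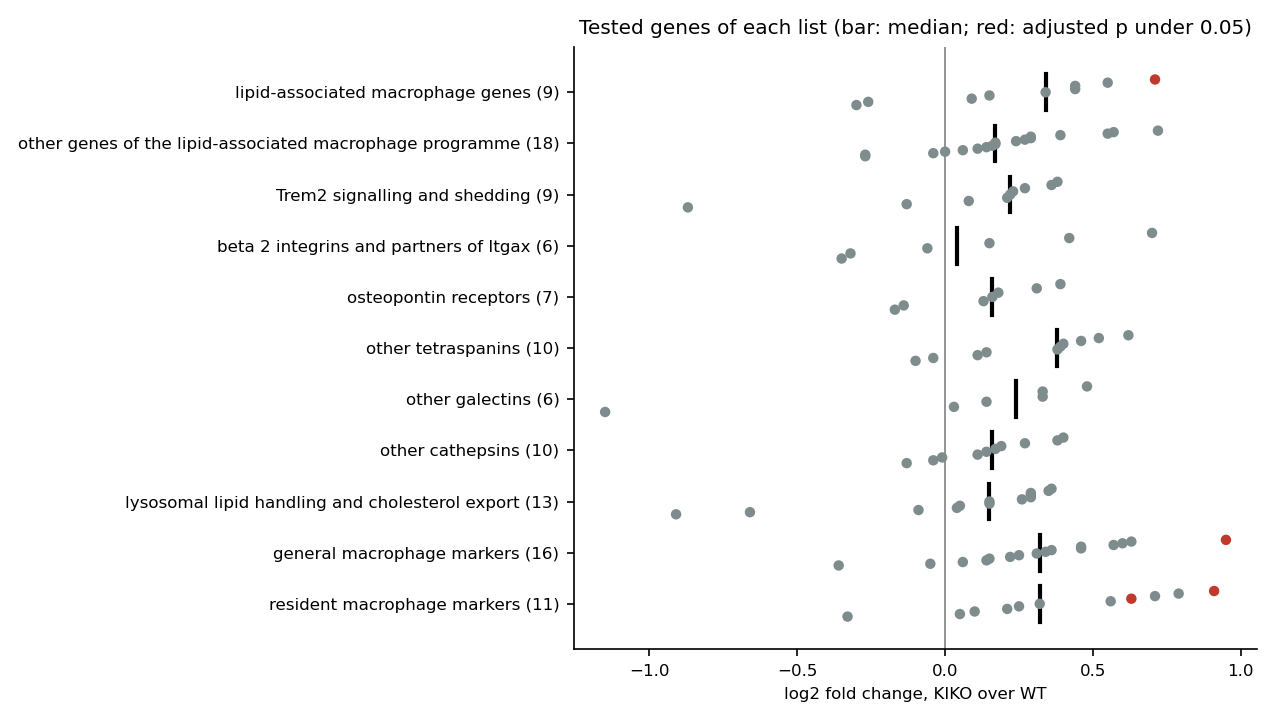
Log2 fold change (KIKO over WT) of the tested genes of each list, with 1 point per gene, the number tested in parentheses and a bar at the median. Red points have an adjusted p under 0.05: *Lgals3* among the members, *Lyz2* among general and *Folr2* and *Pf4* among resident macrophage markers. Medians of the lists shown lie between 0.04 and 0.38.

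Downstream of Trem2, 9 genes of signalling and shedding were tested and edgeR called 0, as did DESeq2, limma-voom and limma-trend. At an unadjusted p under 0.05, where 7.13% of all tested genes were higher and 9.06% lower, 0 were higher and 1 was lower. This was *Inpp5d*, which encodes SHIP1, an inositol phosphatase that restrains signalling through Tyrobp. It had 8.79 CPM in KIKO and 15.9 CPM in WT mice on average and was lower in every KIKO mouse (log2 fold change -0.87, SE 0.21, edgeR adjusted p = 0.0707), and it passed without WT mouse 3 (-0.91, adjusted p = 0.0290). *Syk*, the kinase that Tyrobp recruits, had a log2 fold change of 0.38 (SE 0.19, edgeR adjusted p = 0.334), and *Clu*, whose lipoprotein product clusterin binds Trem2, 0.36 (SE 0.21, edgeR adjusted p = 0.423).

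Partners of the surface and secreted members gave 0 calls by edgeR too. Of 10 other tetraspanins, 6 were higher and 0 lower at an unadjusted p under 0.05, with a median log2 fold change of 0.38. Among all tested genes 7.13% were higher and 9.06% lower at that p. DESeq2 called *Cd81* only, and limma-voom and limma-trend called 0. Without WT mouse 3 *Cd81*, *Cd151* and *Tspan3* passed, in the setting where 654 of 11261 tested genes passed. *Cd81* had 362 CPM in KIKO and 277 CPM in WT mice on average (log2 fold change 0.39, SE 0.11, edgeR adjusted p = 0.114). *Tspan3* had a log2 fold change of 0.46 (SE 0.15, edgeR adjusted p = 0.153) and *Cd151* of 0.40 (SE 0.15, edgeR adjusted p = 0.202).

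Of 6 other galectins 0 passed in edgeR, and 3 were higher and 1 lower at an unadjusted p under 0.05. The shares of all tested genes were 7.13% higher and 9.06% lower. *Lgals3bp*, a secreted glycoprotein that binds galectin-3, had 280 CPM in KIKO and 201 CPM in WT mice on average (log2 fold change 0.48, SE 0.13, edgeR adjusted p = 0.0959), and it was the only gene of the list that DESeq2 called. *Lgals9* was at 0.33 (SE 0.13, edgeR adjusted p = 0.237). *Lgals4*, a galectin known from gut epithelium, was at -1.15 (SE 0.27, edgeR adjusted p = 0.0704) and passed without WT mouse 3, as *Lgals3bp* did. Limma-voom and limma-trend called 0.

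Of 6 tested beta 2 integrins and partners of Itgax, edgeR called 0. At an unadjusted p under 0.05, where 7.13% of all tested genes were higher, 1 of the 6 was higher. This was *Itgb2*, the beta chain that pairs with Itgax (log2 fold change 0.70, SE 0.28, edgeR adjusted p = 0.237). *Fermt3*, a myeloid activator of integrins, was at -0.35 (SE 0.26, edgeR adjusted p = 0.546) and the ligand gene *Icam1* at -0.32 (SE 0.25, edgeR adjusted p = 0.577). Of 7 osteopontin receptors edgeR called 0 and 1 was higher at an unadjusted p under 0.05, *Cd44* (log2 fold change 0.39, SE 0.17, edgeR adjusted p = 0.256). *Itgb1* was at -0.17 and *Itga4* at 0.31. DESeq2, limma-voom and limma-trend called 0 in both lists.

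Around the lysosomal enzymes, edgeR called 0 of 10 other cathepsins, with 3 higher and 0 lower at an unadjusted p under 0.05. Among all tested genes 7.13% were higher and 9.06% lower at that p. *Ctss*, a cathepsin of antigen-presenting cells, was nearest (log2 fold change 0.40, edgeR adjusted p = 0.100), and DESeq2 called it alone. *Ctsh* was at 0.38 and *Ctsc* at 0.27. Of 13 genes of lysosomal lipid handling and cholesterol export, edgeR, DESeq2, limma-voom and limma-trend called 0, and 2 were higher and 2 lower at an unadjusted p under 0.05. The lower genes were *Abcg1* and *Npc1*. The higher genes were *Asah1* and *Npc2* (log2 fold change 0.29, SE 0.14, edgeR adjusted p = 0.306). *Abca1* of the same list was at -0.09 (SE 0.15, edgeR adjusted p = 0.819). *Abcg1*, a cholesterol exporter, had 7.26 CPM in KIKO and 13.6 CPM in WT mice on average and was lower in every KIKO mouse (-0.91, SE 0.26, edgeR adjusted p = 0.109). That order held for 4.51% of all tested genes. *Npc1*, the lysosomal cholesterol transporter, had 32.9 CPM in KIKO and 51.6 CPM in WT mice (-0.66, SE 0.21, edgeR adjusted p = 0.136) and passed without WT mouse 3 (-0.80, adjusted p = 0.0224). *Asah1*, which encodes acid ceramidase, was at 0.35 (SE 0.12, edgeR adjusted p = 0.177).

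Of the MiT/TFE factors, which drive lysosomal genes and *Gpnmb*, 3 were tested. EdgeR called 0, none had an unadjusted p under 0.05, and DESeq2, limma-voom and limma-trend called 0. *Tfe3* had a log2 fold change of -0.26 (SE 0.13, edgeR adjusted p = 0.343), *Mitf* of 0.19 and *Tfeb* of -0.06.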

How the data were processed

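RNA of vWAT from 8 mice was sequenced, and the raw count table deposited by the authors was analysed. A second deposited table, log2 values that the authors made from size-factor-scaled counts plus 1, served only as an alternative. According to the study's methods, Trimmomatic trimmed the reads, HISAT2 placed them on GRCm38, StringTie made the counts and DESeq2 tested them. The annotation release is not given in the sources used here, and kit and instrument differ between the methods and the labels. Symbols and positions were taken from GENCODE M21, which held 31011 of the 31053 genes. A digital mRNA-seq protocol is named in the labels. Whether reads cover whole transcripts or their 3′ ends is not settled by the sources used here. CPM was not corrected for transcript length, so levels of different genes may not be in proportion to their numbers of transcripts. This limit also holds for summed levels and levels relative to macrophage markers, which combine different genes. The length trend is given as measured.

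EdgeR 4.0.16 in R 4.3.3 was run with TMM scaling, its filterByExpr filter and its quasi-likelihood test on a model of genotype alone, with Benjamini-Hochberg adjustment over 11080 genes. The study used DESeq2, which was run as an alternative. Each standard error was derived from the F statistic. Log2 CPM used a prior count of 0.5 per library. Alternatives were DESeq2 1.42.0, limma 3.58.1 (voom, and trend on the deposited log2 values), other scalings and filters, the replicate number as a block and leaving out each mouse. A correction for length and GC (mgcv 1.9.3), edgeR's newer estimator and levels relative to macrophage markers were added after the data were seen. The members and the 25 lists were chosen with earlier results of these data known. Of the 202 list symbols 201 were found once, and *Clec7a* was not analysed here. The gene targeted in KIKO mice is not reported here. Text names all members, every list gene that passed and up to 3 others per list with the smallest p, and genes that passed in an alternative or stood out otherwise were named after their values were seen. WT mice were littermates according to the study's methods. Which mice shared a litter is not given in the sources used here. The tests weigh the genotype difference against the spread between these mice, and the model of genotype alone treats the mice as independent. Steps were tested on simulated data, and no pair of libraries of 1 genotype was a duplicate.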

Additional observations from a re-analysis of the deposited data

Results flagged for a closer look

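In 22 groups of 4 mice (10 members and their summed level in each genotype), 4 had a mouse whose distance from the nearest other exceeded Dixon's critical value of 0.829 of the range, where chance gives about 1 in 20 groups. *Tyrobp* was at 46.5 CPM in KIKO mouse 2, below 56.7 to 58.2 CPM in the other KIKO mice. *Cd9* was at 11.2 CPM in KIKO mouse 1, below 17.8 to 18.4 CPM in the other KIKO mice. *Spp1* was at 0.322 CPM in KIKO mouse 3 and at 0.333 CPM in WT mouse 3, each a single count with 0 in the other mice of its genotype. Any single count among zeros exceeds the critical value, so the rate of 1 in 20 does not apply to the *Spp1* groups.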

How the results depend on the processing

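Of all tested genes 75 were called (31 higher, 44 lower). The count was 382 with no filter (146 higher, 236 lower), 284 with DESeq2, 40 with limma-voom, 45 with limma-trend, 32 with the length and GC correction, and 67 with library totals in place of TMM (18 higher, 49 lower). Leaving out 1 mouse gave 0 to 654 calls. EdgeR made 654 calls without WT mouse 3, and 0 without mouse 2 or mouse 4 of the WT group (1344 and 1533 at an unadjusted p under 0.05) or without KIKO mouse 4 (1328). The fit with the replicate number as a block called 0 (1427 at an unadjusted p under 0.05). Mice of the same number did not deviate together (r = -0.147, -0.125, -0.105 and 0.0308). This gives no sign that the numbers pair them but cannot exclude it. Of the members 1 was called, against 2 with DESeq2 (*Lgals3* and *Cd63*), 0 with the replicate block, 0 with the length and GC correction (each with 3 at an unadjusted p under 0.05), and 0 to 2 with 1 mouse left out. The 2 were *Lgals3* and *Tyrobp*, without WT mouse 3, and leaving out any other mouse gave 0 (3 to 4 at an unadjusted p under 0.05). *Lgals3* kept its direction in 19 of 19 alternatives (log2 fold change 0.60 to 0.85) and passed in 10 of them (edgeR, limma or DESeq2 adjusted p from 0.00127 to 0.169). *Cd9* changed sign without WT mouse 3 (-0.04) and with the length and GC correction (-0.03), and *Ctsk* without WT mouse 4 (-0.01) and without KIKO mouse 3 (-0.04). With 1 mouse left out, *Cd9* ranged from -0.04 to 0.23 and *Ctsk* from -0.04 to 0.49 on the log2 scale. The cause was not tested. The counts of *Trem2*, *Itgax* and *Ctsk* limit what their intervals can show.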
